A study of Arabidopsis thaliana with 24 samples.

Results

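Both PIF4-L lines were compared with the pif4 mutant in dark-grown Arabidopsis thaliana seedlings kept at 22 °C. The comparison takes 9 of the 24 libraries in the series: the 6 libraries of the PIF4-L lines, read as a mean of 2 lines that weigh the same, against the 3 libraries labelled pif4. The PIF4-L lines carry PIF4pro:PIF4-3xFlag, a transgene in which the PIF4 promoter drives PIF4 with a Flag tag. The mutant carries pif4-101, and all groups are in the Columbia background. The labels do not say whether the lines also carry pif4-101. The 3 WT libraries from the same condition entered the fit and are given beside some of the values. Seeds were stratified, given 3 h of white light at 22 °C, and grown for 3 days in darkness, and at harvest the seedlings had spent the last 3 h at 22 °C (37 °C in the heated libraries of the series). PolyA RNA of whole seedlings was sequenced, so fewer cells of a type and less RNA per cell cannot be told apart. The columns of the deposited table call the lines H71 and H76 and the libraries of each group a, b and c. No label ties H71 or H76 to the line names PIF4-L.1 and PIF4-L.2, or a letter to a replicate number. The samples are described as biological triplicates, without saying whether they came from separate sowings, so the p-values cover library-to-library spread, which may be partly technical. In the main fit the 2 lines are separate groups, so its p-values and SE do not cover spread between lines.

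PIF4 belongs to the phytochrome-interacting factors (PIFs), transcription factors with a basic helix-loop-helix domain. PIFs accumulate in darkness, where they keep seedlings in the elongated, pale form, and are removed after phytochrome is activated by light. They bind the G-box (CACGTG) and a related element, the PBE (CACATG), and are known for raising auxin-related and cell-elongation genes in the hypocotyl and for holding back greening genes.

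Read totals were 3790972 to 9905743 in the PIF4-L libraries, 3176106 to 11099980 in pif4 and 3234886 to 14791597 in WT. The first principal component held 18.7% of the variance and the second 16.8%, and neither separated the lines from pif4. Reads of AT2G01021, a ribosomal RNA locus, took 4.51 to 8.34% of the libraries lettered a and 1.74 to 3.28% of the others. The highest share was that of pif4 a, which also had the highest summed level of the photosynthesis and light-exposure lists. Root markers summed to 489.2 to 682.1 CPM (reads of a gene scaled to a common library size after TMM normalization) in the PIF4-L lines, 558.0 to 702.1 CPM in pif4 and 667.5 to 691.4 CPM in WT.

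In the mean of the lines against pif4, PIF4 itself was higher in all 6 line libraries, but no gene passed the threshold of an adjusted p under 0.05 (edgeR's quasi-likelihood test, Benjamini-Hochberg over 18751 genes). The background share called was therefore 0%. The smallest adjusted p was 0.0614. At an unadjusted p under 0.05 there were 658 genes (3.51% of those tested), 220 higher and 438 lower in the lines, and the median log2 difference of all genes was -0.01 with a median SE of 0.23. DESeq2 called 8 genes, 6 higher and 2 lower. With the library letters as a replicate block in edgeR, 6 genes were called, 3 higher and 3 lower. All 6 line libraries lay above all 3 pif4 libraries for 160 genes (0.853%) and below them for 212 genes (1.13%).

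PIF4 (AT2G43010) had 85.0, 71.2 and 82.9 CPM in H71 libraries a, b and c and 60.0, 41.7 and 51.2 CPM in H76, against 24.4, 35.0 and 16.1 CPM in pif4 and 11.2, 19.1 and 12.8 CPM in WT. The raw reads were 314, 421 and 489 in H71 and 502, 414 and 421 in H76, against 71, 197 and 185 in pif4 and 34, 264 and 194 in WT. The 3 H71 libraries were the highest, the H76 libraries came next, and neither line overlapped pif4. The mean of the lines was 1.36 ± 0.23 above pif4 (log2 ± SE, 6 libraries of 2 lines against 3), with an adjusted p of 0.0711 in edgeR, which missed the threshold. For H71 alone PIF4 was 1.68 above pif4 and called (adjusted p = 0.0352, edgeR). For H76 alone it was 1.03 above pif4 and not called (adjusted p = 0.404, edgeR). The lines differed from each other by 0.65, which was not called (adjusted p = 0.999, edgeR). Against WT the mean of the lines was 2.11 higher and called (adjusted p = 7.92e-05, edgeR), one of 75 genes called in that contrast (0.4% of those tested).

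The call on the PIF4 level depended on the method. DESeq2 called it at an adjusted p of 5.88e-05, a fit of all 24 libraries in edgeR at 0.00191 and a fit without the filter on low counts at 0.018, each at a log2 difference of 1.36 to 1.37. Over 19 alternatives the adjusted p lay between 5.88e-05 and 1 and the difference between 1.09 and 1.70. Leaving out pif4 b, which has the most PIF4 of its group, gave 1.70 and a call (adjusted p = 0.0309, edgeR). PIF4 was also called with the library letters as a replicate block, so that 5 of the 19 alternatives called it.

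PIF4 in the libraries labelled pif4 was not lower than in WT (a log2 difference of 0.76, adjusted p = 0.865, edgeR). A count per gene does not show which part of the transcript the reads came from, so these counts do not check the pif4 labels. In the line libraries, reads of the transgene and of the resident gene count alike.

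**Figure D1:**
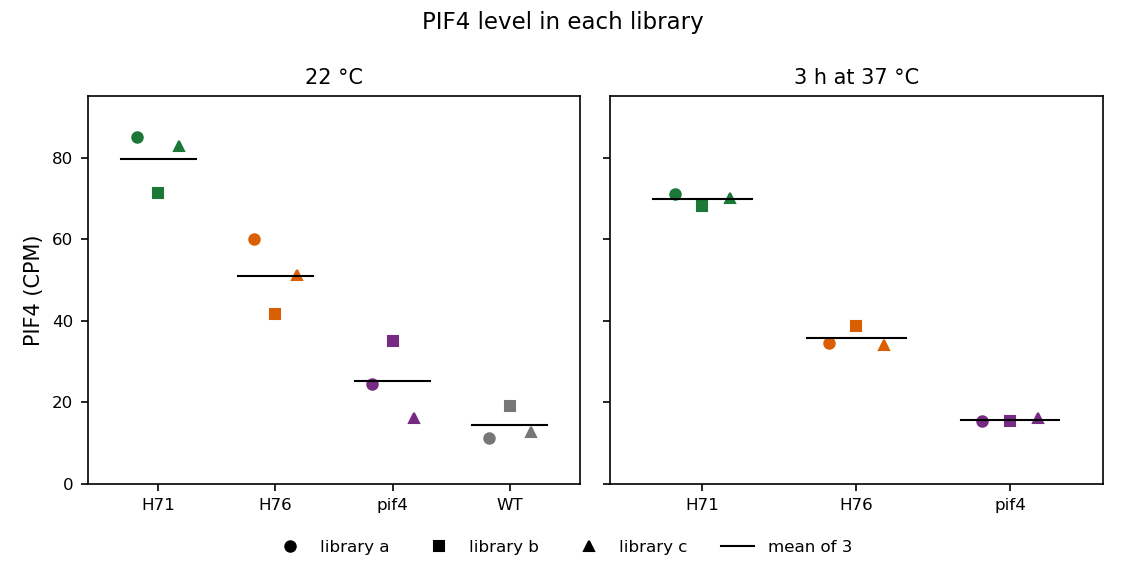
PIF4 level (CPM, y axis) in each library by line or genotype (x axis), at 22 °C on the left and after 3 h at 37 °C on the right, where WT is not drawn. Symbols mark libraries a, b and c and the bar their mean. At 22 °C the H71 libraries lie between 71.2 and 85.0 CPM and the H76 libraries between 41.7 and 60.0 CPM, above the pif4 range of 16.1 to 35.0 CPM.

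The promoter in the transgene carries the name of PIF4, so the 250 bases directly upstream of the annotated PIF4 start are shown (RefSeq, TAIR10.1, plus strand). The length of promoter in the construct is not given in the sources used here. This window held neither CACGTG nor CACATG on either strand.
PIF4 upstream: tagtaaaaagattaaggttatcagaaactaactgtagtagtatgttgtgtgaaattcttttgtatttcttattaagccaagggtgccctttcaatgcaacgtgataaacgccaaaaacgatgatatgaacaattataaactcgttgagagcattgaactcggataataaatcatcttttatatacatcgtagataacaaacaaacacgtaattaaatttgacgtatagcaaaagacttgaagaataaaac

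After 3 h at 37 °C the same order of PIF4 was seen in other seedlings of the lines and the mutant. H71 libraries held 71.1, 68.1 and 70.0 CPM and H76 libraries 34.6, 38.8 and 34.0 CPM, against 15.4, 15.5 and 16.2 CPM in pif4. The groups did not overlap, and each spread less than at 22 °C. The mean of the lines was 1.67 ± 0.16 above pif4 (log2 ± SE), with an adjusted p of 1.23e-06 in edgeR, one of 139 genes called of 16623 in the heated libraries (0.836%). Each line passed there on its own as well, H71 by 2.15 (adjusted p = 3.6e-08, edgeR, where 0.247% of genes were called) and H76 by 1.19 (adjusted p = 0.00126, edgeR, 0.728% called).

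Since fewer than 6 genes were called at 22 °C, the 10 genes with the smallest p are described, none of them called. Of these, 6 were higher and 4 lower in the lines. Besides PIF4 they comprised 3 late embryogenesis abundant (LEA) genes, a fatty acid desaturase, a lectin, a cell wall enzyme, a glutamine synthetase, a nuclear pore gene and a non-coding RNA. In 6 of the 10 the line libraries did not overlap pif4, 3 above and 3 below, beside 0.853% and 1.13% of all genes. The 10 were picked by p in these same libraries, which favours such separation. In the heated libraries all 10 had the same sign as at 22 °C and 3 were called (PIF4, FTM1 and JAL22), beside the 0.836% of all genes called there. The share of all genes with the same sign was not computed, so the 10 signs do not measure agreement. Some differences were small, such as -0.16 ± 0.17 for GSR2 and 0.22 ± 0.13 for LEA18 (log2 ± SE). AT2G01422 was at 0 CPM in every heated H71 and pif4 library.

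FTM1 (AT1G43800), a stearoyl-acyl-carrier-protein desaturase that puts the first double bond into plastid fatty acids, had 27.4, 38.9 and 38.1 CPM in H71 and 77.1, 72.5 and 76.5 CPM in H76, against 17.5, 17.9 and 29.9 CPM in pif4 and 10.8, 14.2 and 14.9 CPM in WT. All H76 libraries stood well above pif4, while H71 a lay below pif4 c. The mean of the lines was 1.20 ± 0.19 above pif4 (log2 ± SE, adjusted p = 0.0614, edgeR). Over the alternatives its adjusted p ran between 4.51e-05 and 1, with 6 of 19 under the threshold. At 37 °C the mean of the lines was 1.09 ± 0.23 above pif4 for FTM1 and called (adjusted p = 0.0171, edgeR). By line, H76 was 1.76 above pif4 and called there (adjusted p = 7e-04, edgeR). H71 was 0.42 above and not called (adjusted p = 0.645, edgeR). Its heated libraries had 11.7, 14.9 and 22 CPM, overlapping pif4 at 13.8, 11.8 and 10.8 CPM.

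JAL22 (AT2G39310), a jacalin-related lectin of a family that binds carbohydrates, was the clearest low gene. It had 151.9, 160.5 and 125.4 CPM in H71 and 166.5, 189.8 and 209.7 CPM in H76, against 328.2, 258.1 and 251.6 CPM in pif4 and 336.4, 370.9 and 352.5 CPM in WT. Every line library was below every pif4 and WT library. The mean of the lines differed from pif4 by -0.75 ± 0.12 (log2 ± SE, adjusted p = 0.0614, edgeR). H71 alone fell by 0.93 and was called (adjusted p = 0.0352, edgeR), with PIF4 one of the 2 genes (0.0107%) called in that line. At 37 °C the difference of the mean was -0.97 ± 0.12 and was called (adjusted p = 7.02e-05, edgeR).

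XTH25 (AT5G57550), of the xyloglucan endotransglucosylases that remodel the cell wall, was low and close to the counting limit in several libraries. It had 1.08, 0.169 and 1.19 CPM in H71 and 4.06, 4.73 and 7.42 CPM in H76, against 8.26, 12.8 and 6.35 CPM in pif4 and 0.656, 1.02 and 2.17 CPM in WT. H71 sat with WT, H76 in between, and H76 c overlapped pif4 c. The mean of the lines differed from pif4 by -2.13 ± 0.44 (log2 ± SE, adjusted p = 0.543, edgeR). DESeq2 called it at an adjusted p of 0.0125, the lowest of its alternatives, which ran up to 1.

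GSR2 (AT1G66200), a cytosolic glutamine synthetase that assimilates ammonium, had 83.7, 118.6 and 96.5 CPM in H71 and 127.1, 139.4 and 147.1 CPM in H76, against 167.9, 165.3 and 185.8 CPM in pif4. All line libraries were lower, a difference of -0.56 ± 0.12 (log2 ± SE, adjusted p = 0.604, edgeR). EMB3142 (AT5G51200), a nuclear pore complex protein, had 32.2 to 39.3 CPM over the 6 line libraries, against 55.7, 41.5 and 73.8 CPM in pif4. The line libraries were tight and pif4 was spread, and the difference was -0.69 ± 0.16 (adjusted p = 0.604, edgeR).

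**Figure D2:**
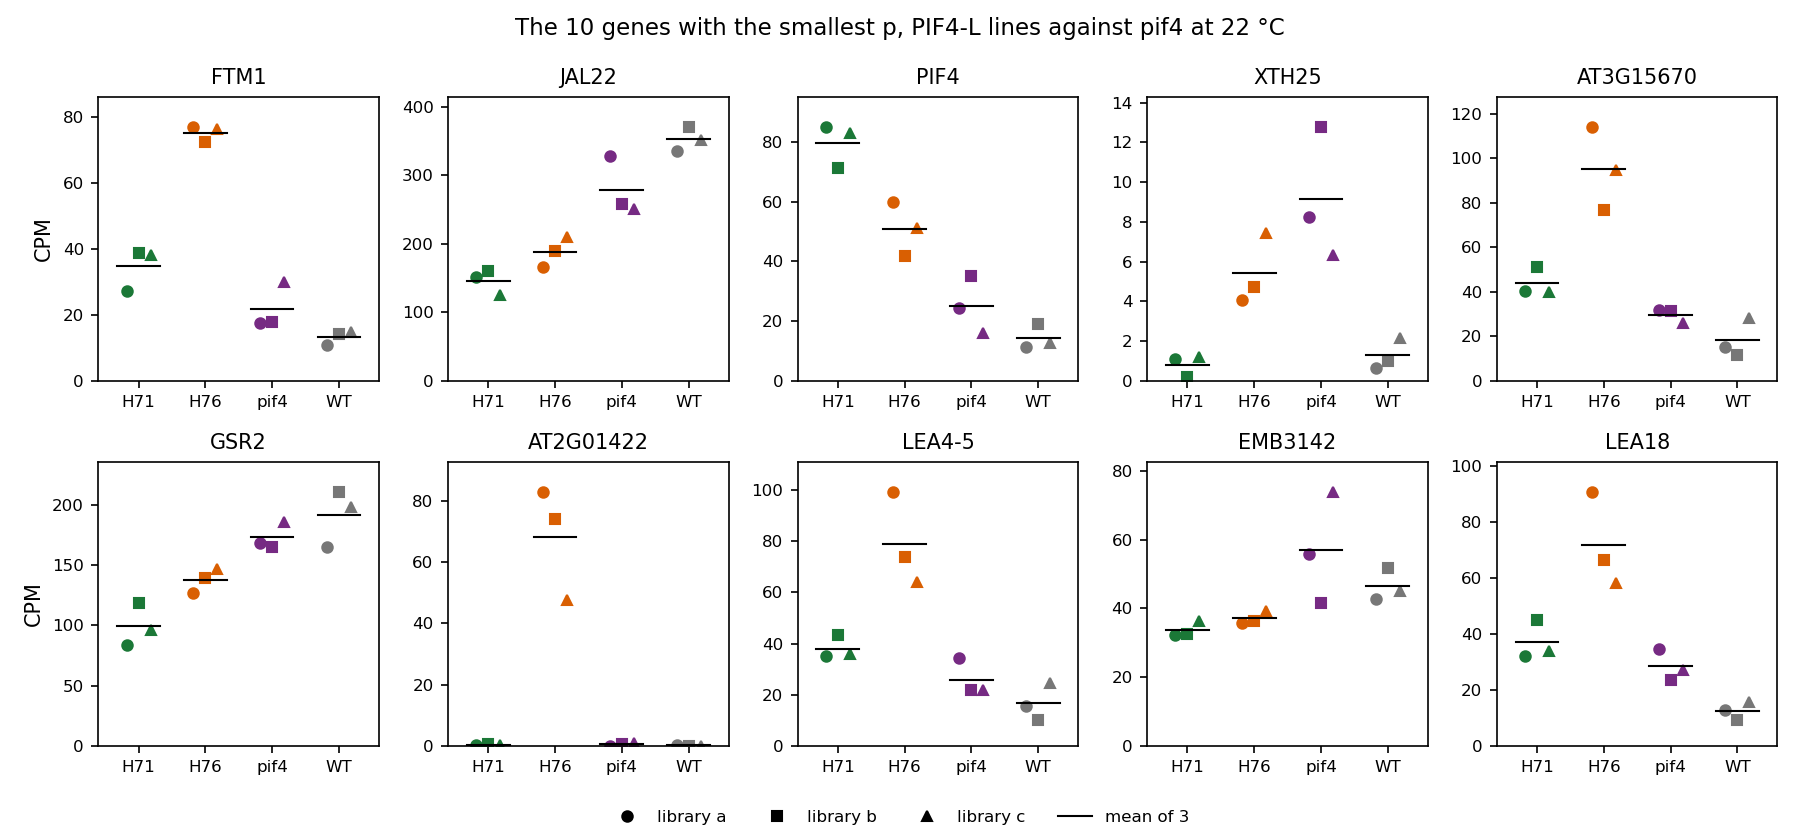
Level (CPM, y axes starting at 0) of the 10 genes with the smallest p in each library of H71, H76, pif4 and WT at 22 °C, with symbols for libraries a, b and c and a bar for the mean of 3. JAL22 lies at 125.4 to 209.7 CPM in the line libraries, all below the pif4 range of 251.6 to 328.2 CPM, and AT2G01422 is high in the 3 H76 libraries alone among the 12.

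AT2G01422 separated the lines from each other. This annotated non-coding RNA had 82.7, 73.9 and 47.5 CPM in H76 libraries (692, 734 and 391 reads), against 0.271, 0.677 and 0.170 CPM in H71 (1, 4 and 1 reads). The pif4 libraries had 0, 3 and 12 reads of it and the WT libraries 1, 0 and 2. No library at 22 °C outside H76 therefore had more than 12 reads of it. H76 was 6.55 above pif4 on the log2 scale (adjusted p = 2.08e-07, edgeR), and H71 minus H76 was -7.40 (adjusted p = 1.52e-07, edgeR), the single gene called between the lines (0.00533%). The log2 difference of 2.84 for the mean of the lines (adjusted p = 0.604, edgeR) describes neither line.

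At 37 °C AT2G01422 had 10.4, 15 and 13.6 CPM in H76 and 0 CPM in every H71 and pif4 library. Its neighbours in the TAIR10.1 annotation, looked up after these values were seen, are PIN4 and HB17. PIN4 (AT2G01420), an auxin efflux carrier, had 84.6 to 91.1 CPM in H76 and 72.8 to 85.6 CPM in H71, against 91.1 to 97.5 CPM in pif4. HB17 (AT2G01430), a homeodomain transcription factor gene, had 2 to 12 reads in H76 libraries, 0 to 6 in H71 and 2 to 16 in pif4. Neither neighbour shared the level seen for AT2G01422 in H76. Whether counting used strand is not given in the sources used here.

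Line by line, 9 genes (0.048%) were called in H76 against pif4, all higher. Beside AT2G01422 and FTM1 they held 5 LEA genes (AT3G15670, LEA4-5, LEA18, AT3G17520 and AT5G66780), the oleosin gene AT3G01570 and PV42A (AT1G15330), which encodes a protein with cystathionine beta-synthase domains. LEA proteins are small hydrophilic proteins that accumulate late in seed development and under water loss and protect other molecules during drying, and oleosins coat the oil bodies of seeds. In H71 none of these 9 was called, and the log2 differences from pif4 lay between -0.86 and 0.65. The count for H76 was 2 without H76 a, without pif4 b or without pif4 c, 3 without H76 b and 5 without H71 b. Of the 9 genes, AT2G01422 and FTM1 were called under all 18 alternatives tried.

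AT3G15670, an LEA family gene, had 40.1, 51.3 and 39.7 CPM in H71 and 114.0, 76.8 and 94.7 CPM in H76, against 31.7, 31.4 and 26.0 CPM in pif4 and 15.1, 11.6 and 28.1 CPM in WT. All line libraries lay above pif4, with H76 highest. H76 was 1.69 above pif4 (adjusted p = 0.0227, edgeR), H71 0.57 (adjusted p = 0.999, edgeR), and the mean of the lines 1.13 ± 0.23 (adjusted p = 0.543, edgeR).

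LEA4-5 (AT5G06760) had 34.9, 43.1 and 35.8 CPM in H71 and 99.1, 73.9 and 64.0 CPM in H76, against 34.4, 21.7 and 21.7 CPM in pif4 and 15.4, 10.3 and 24.4 CPM in WT. H71 a lay just above pif4 a, and H76 was clear of both. H76 was 1.64 above pif4 (adjusted p = 0.0394, edgeR) and the mean of the lines 1.11 ± 0.25 (adjusted p = 0.604, edgeR). LEA18 (AT2G35300) had 32.2 to 45.2 CPM in H71 and 58.4 to 90.7 CPM in H76, against 23.4 to 34.7 CPM in pif4, so that H71 overlapped pif4 and H76 did not.

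AT5G66780 had 10.8, 13.4 and 17.3 CPM in H71 and 48.8, 38.1 and 23.95 CPM in H76, against 12.7, 10.8 and 9.92 CPM in pif4. AT3G17520 had 35.5, 36.7 and 39.8 CPM in H71 and 115.6, 74.8 and 75.4 CPM in H76, against 46.1, 30.9 and 31.4 CPM in pif4. In both genes H76 stood alone and H71 overlapped pif4. The oleosin AT3G01570 did the same, with 28.4 to 30.8 CPM in H71 and 62.0 to 98.7 CPM in H76, against 29.8 to 38.5 CPM in pif4 and 6.56 to 12.2 CPM in WT.

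**Figure D3:**
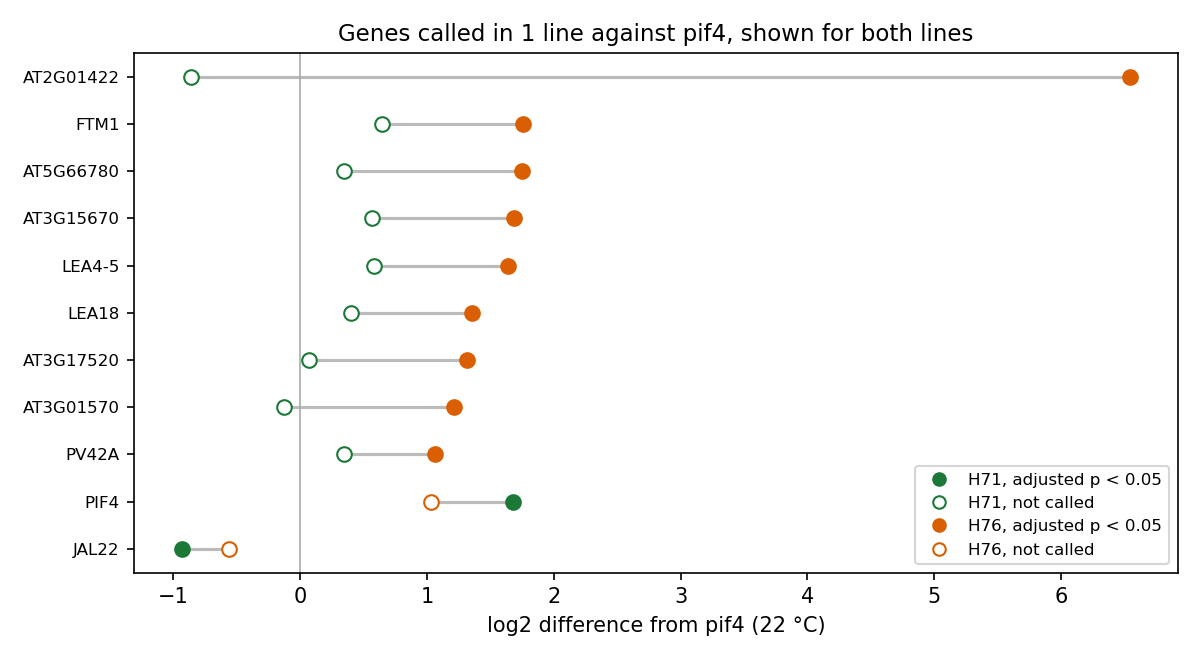
Log2 difference from pif4 at 22 °C (x axis) of each gene called in either line (rows), for H71 in green and H76 in orange, with filled circles for an adjusted p under 0.05 and open circles above it. AT2G01422 spans -0.86 in H71 and 6.55 in H76, and PIF4 and JAL22 are the 2 genes called in H71.

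Of the 9 genes called in H76, 8 are protein-coding with an upstream window in the reference, and 4 of these windows (50%) held CACGTG, against 7.6% of the windows of all genes tested. The PBE (CACATG or its complement CATGTG) was in 1 of the 8 (12.5%), against 11.2%. The same letters CACGTG are part of the abscisic acid response elements that many LEA promoters are known for, so a match does not name the factor. The windows of 3 LEA genes and that of PV42A are shown because they carry the motif, which is in capitals (250 bases upstream of the annotated start, 5′ to 3′, RefSeq, TAIR10.1, minus strand for the LEA genes and plus strand for PV42A).
LEA4-5 upstream: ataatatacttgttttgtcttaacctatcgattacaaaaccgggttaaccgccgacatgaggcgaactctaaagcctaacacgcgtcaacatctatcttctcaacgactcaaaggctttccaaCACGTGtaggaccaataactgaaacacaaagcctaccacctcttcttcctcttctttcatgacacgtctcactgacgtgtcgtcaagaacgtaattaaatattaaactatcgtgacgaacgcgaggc
LEA18 upstream: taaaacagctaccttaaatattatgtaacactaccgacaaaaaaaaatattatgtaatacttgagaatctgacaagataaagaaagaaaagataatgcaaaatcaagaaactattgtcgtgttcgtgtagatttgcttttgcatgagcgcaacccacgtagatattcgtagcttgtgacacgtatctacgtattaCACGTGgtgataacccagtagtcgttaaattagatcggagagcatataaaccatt
AT3G17520 upstream: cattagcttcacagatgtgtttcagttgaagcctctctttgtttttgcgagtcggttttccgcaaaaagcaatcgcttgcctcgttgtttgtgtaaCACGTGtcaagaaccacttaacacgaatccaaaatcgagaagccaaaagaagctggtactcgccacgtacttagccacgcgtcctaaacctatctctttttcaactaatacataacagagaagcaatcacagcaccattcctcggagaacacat
PV42A upstream: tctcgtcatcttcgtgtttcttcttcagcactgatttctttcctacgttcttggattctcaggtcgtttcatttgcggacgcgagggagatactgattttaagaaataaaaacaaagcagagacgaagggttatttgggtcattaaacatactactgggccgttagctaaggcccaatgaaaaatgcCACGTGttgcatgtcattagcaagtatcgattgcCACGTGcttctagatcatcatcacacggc

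A list of genes annotated as LEA was made after these values were seen, leaving out products annotated as hydroxyproline-rich. Of its 46 members, 29 could be tested. In the mean of the lines none was called, and 13 had an unadjusted p under 0.05, all higher. Beside this, 3.51% of all genes had such a p in either direction, and 220 of 18751 were higher. The median log2 difference was 0.33, beside -0.01 over all genes, and it was 0.56 without pif4 a and 0.57 without pif4 b. In H76 alone 5 were called, all higher, beside 0.048% of all genes, and the median was 1.104. These are the 5 LEA genes named above, seen before the list was made, so their count is no separate result. The same 5 are among the 13 and enter the medians of the list, which are therefore no separate result either. In H71 alone none was called, beside 0.0107% of all genes, and the median was 0.12. Of the 29 windows, 14 (48.3%) held CACGTG. The largest difference was that of AT3G02480, with 66.6, 66.8 and 43.6 CPM in H71 and 188.9, 125.8 and 86.9 CPM in H76, against 44.4, 23.61 and 29.0 CPM in pif4. H71 c lay within the pif4 range there, and the mean of the lines was 1.49 higher on the log2 scale, with an unadjusted p of 0.000373 in edgeR.

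Seed transcripts also varied between these libraries. Summed over the tested members, LEA genes held 876.8, 931.0 and 891.8 CPM in H71 and 1528, 1241 and 1107 CPM in H76, against 908.8, 782.9 and 758.0 CPM in pif4 and 717.7, 633.0 and 703.7 CPM in WT. The seed storage and maturation list (9 of 10 members tested, SESA1 not) summed to 407.0, 596.5 and 666.3 CPM in H71 and 1732, 775.8 and 1301 CPM in H76, against 1068, 1010 and 749.1 CPM in pif4 and 84.6, 416.6 and 175.0 CPM in WT. All H76 libraries were above all others for LEA genes, while for seed genes H76 a and c were the highest and H76 b lay within the pif4 range. The part of seed transcripts in the LEA values was not tested.

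No seed gene was called in the mean of the lines, whose median was -0.45, with 3 positive and 6 negative values. That mean describes neither line, since H71 had 0 positive and 9 negative values (median -0.82) and H76 had 6 positive and 3 negative (median 0.24). Without pif4 a the median of the mean was -0.24, and without H76 b it was -0.28. All 9 were lower in H71 than in H76, by a median of 1.14 on the log2 scale, with none called between the lines. SESA3 (AT4G27160), a seed storage albumin, had 1.63, 4.399 and 11.5 CPM in H71 and 10.3, 9.47 and 6.81 CPM in H76, against 24.1, 19.9 and 20.1 CPM in pif4 and 0, 2.54 and 11.1 CPM in WT. Its line libraries all lay below pif4, a difference of -1.53 ± 0.66 (log2 ± SE, adjusted p = 0.999, edgeR). EM1 (AT3G51810), an early LEA-type protein of the embryo, had 32.2, 37.1 and 50.0 CPM in H71 and 96.3, 84.4 and 95.2 CPM in H76, against 44.7, 54.5 and 40.6 CPM in pif4. OLEO2 (AT5G40420), an oleosin, had 14.6 to 27.9 CPM in H71 and 33.8 to 49.3 CPM in H76, against 20.1 to 22.7 CPM in pif4. For EM1 the H71 libraries reached into the pif4 range, and for OLEO2 they lay on either side of it. In both genes H76 lay above pif4. WT lay below pif4 in both, at 9.51 to 18.5 CPM for EM1 and 3.94 to 9.93 CPM for OLEO2.

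The abscisic acid and ethylene list (12 of 13 tested) had no called member and a median of 0.20, with 10 positive and 2 negative values. The median was 0.02 in H71, with 6 positive and 6 negative values, and 0.37 in H76. For the mean of the lines it was 0.06 without H71 b, 0.13 without H76 a and 0.08 without pif4 b. RAB18 (AT5G66400), a dehydrin raised by abscisic acid, had 92.9, 112.8 and 84.4 CPM in H71 and 282.6, 202.4 and 192.6 CPM in H76, against 116.3, 71.6 and 91.4 CPM in pif4 and 23.0, 34.7 and 50.0 CPM in WT. H71 overlapped pif4 and H76 lay above, and the mean of the lines was 0.67 ± 0.21 higher (adjusted p = 0.999, edgeR). CTR1 (AT5G03730), the kinase that restrains ethylene signalling, had 71.2 to 91.2 CPM over the line libraries, against 96.0, 107.8 and 100.3 CPM in pif4. The groups did not overlap, and the difference was -0.32 ± 0.12 (adjusted p = 0.999, edgeR).

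The other members of the PIF family and their helix-loop-helix partners stayed near pif4 levels, with none called among 9 tested of 10 (PIF7 was not tested) and a median of 0.05. HFR1 (AT1G02340), an atypical helix-loop-helix protein that binds PIFs and keeps them off DNA, was the largest. It had 88.3, 110.5 and 92.9 CPM in H71 and 92.8, 97.3 and 97.5 CPM in H76, against 59.5, 60.7 and 77.6 CPM in pif4 and 93.1, 69.7 and 82.0 CPM in WT. Every line library was above every pif4 library, by about the same amount in H71 (0.55) and H76 (0.53), and the mean was 0.54 ± 0.13 higher with an adjusted p of 0.828 in edgeR. At 37 °C HFR1 was 0.46 ± 0.13 higher and again not called for the mean (adjusted p = 0.106, edgeR), while H71 alone was called there at 0.68 (adjusted p = 0.0474, edgeR). PIF3 (AT1G09530), another dark-active PIF, had 95.3 to 105.2 CPM over the line libraries, against 86.0 to 119.1 CPM in pif4. PIF8 (AT4G00050) was the lowest, at -0.36 ± 0.33.

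Of the growth genes known to respond to PIFs, 15 of 17 were tested (YUC5 and YUC9 were not) and none was called. The median was 0.10, and 11 were positive and 4 negative. ST2A (AT5G07010), a sulfotransferase that acts on 12-hydroxyjasmonate, had 101.8, 91.5 and 91.2 CPM in H71 and 83.4, 95.1 and 82.6 CPM in H76, against 79.5, 65.7 and 68.3 CPM in pif4. All line libraries were higher, by 0.36 ± 0.12 (unadjusted p = 0.00702, edgeR). XTR7 (AT4G14130), a cell wall enzyme of elongating tissue, had 2664 to 3111 CPM over the line libraries, against 2435 to 2669 CPM in pif4. Those ranges touched at H76 a. YUC8 (AT4G28720), an auxin synthesis enzyme and well-known PIF4 target, had 10.1 to 21.2 CPM over the line libraries, against 12.8 to 20.3 CPM in pif4, and did not separate the groups. The largest value was that of ACS8 (AT4G37770), an ethylene synthesis enzyme, at 0.51 ± 0.37, and the lowest that of LNG2 (AT3G02170), which promotes longitudinal cell growth, at -0.11 ± 0.13.

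The PBE was in 7 of the 15 upstream windows of these growth genes (46.7%) and in 9 of the 23 of the auxin list (39.1%), against 11.2% of all genes tested. CACGTG was in 2 of the 15 (13.3%) and in 0 of the 23, against 7.6%. These shares describe lists drawn from known PIF and auxin biology and were not tested.

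All 23 auxin response and transport genes were tested and none was called, with a median of 0.07. IAA6 (AT1G52830), an Aux/IAA repressor of auxin response, had 21.9, 36.9 and 37.6 CPM in H71 and 17.5, 42.4 and 31.1 CPM in H76, against 19.6, 17.6 and 17.1 CPM in pif4 and 29.5, 26.3 and 30.5 CPM in WT. The libraries lettered a of both lines were the low ones, and H76 a overlapped pif4. Its difference was 0.80 ± 0.24 (unadjusted p = 0.00362, edgeR). IAA5 (AT1G15580), another Aux/IAA gene, had the largest value, 1.05 ± 0.70, at 0.60 to 3.53 CPM over the line libraries. PIN7 (AT1G23080), an auxin efflux carrier, had the lowest, -0.17 ± 0.13.

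All 20 brassinosteroid, gibberellin and elongation genes were tested, with none called and a median of 0.05. EXPA5 (AT3G29030), an expansin that loosens cell walls, had 14.1, 24.2 and 15.8 CPM in H71 and 24.2, 22.2 and 28.0 CPM in H76, against 28.6, 30.5 and 30.1 CPM in pif4. All line libraries lay below pif4, by a difference of -0.49 ± 0.19 (unadjusted p = 0.018, edgeR). The WT libraries had 19.34, 19.8 and 27.75 CPM of EXPA5, within the range of the lines and also below pif4. GA20OX2 (AT5G51810), a gibberellin synthesis enzyme, had the largest value of the list, 0.24 ± 0.43, which turned negative without H71 a (-0.09), without pif4 c (-0.04) and without the 4 libraries lettered a (-0.23).

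**Figure D4:**
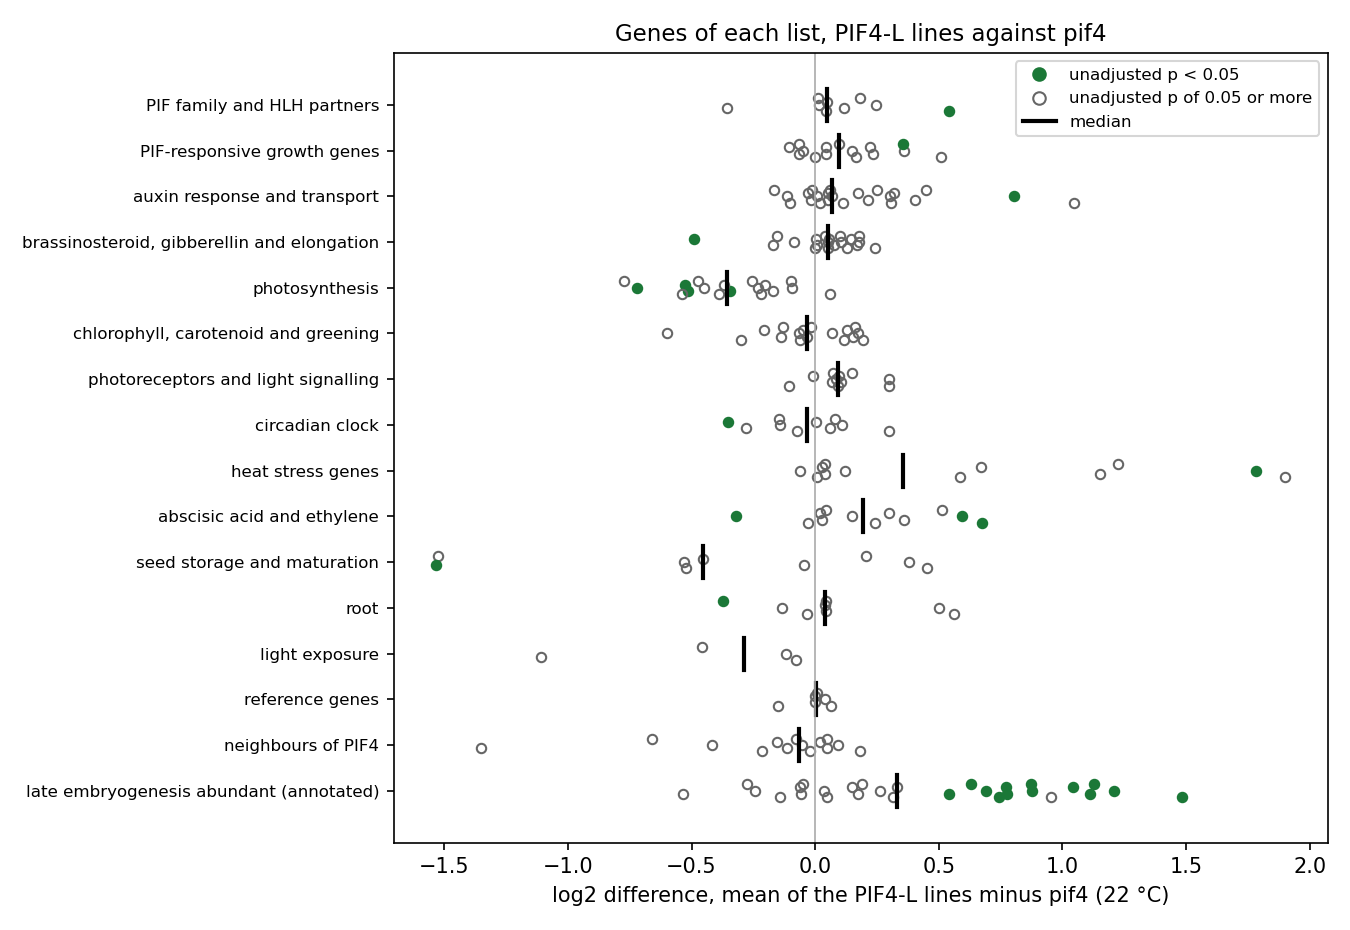
Log2 difference between the mean of the PIF4-L lines and pif4 at 22 °C (x axis) for each tested gene of each list (rows), filled where the unadjusted p is under 0.05, with a bar at the list's median. Medians lie between -0.45 for seed storage and 0.35 for heat stress genes, and none of these genes had an adjusted p under 0.05.

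Photosynthesis genes, chiefly the light-harvesting antenna, had lower values in the lines in 17 of 18 cases, with a median of -0.36 and none called. LHCB2.3 (AT3G27690), an antenna protein of photosystem II, had 55.0, 54.8 and 35.4 CPM in H71 and 70.1, 55.9 and 40.6 CPM in H76, against 131.1, 61.3 and 67.3 CPM in pif4. The high library was pif4 a, and H76 a lay above the other two pif4 libraries. Summed over the list, the lines held 8553 to 13030 CPM, against 14930, 9831 and 9937 CPM in pif4 libraries a, b and c. Library a was also the highest of its group in H71 (11730 CPM), H76 (13030 CPM) and WT (11590 CPM). Without pif4 a the median was 0.00. Rubisco small subunit RBCS1A (AT1G67090) was the single positive member, at 0.06 ± 0.12, and LHCB1.4 (AT2G34430) the lowest, at -0.77 ± 0.37.

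The light-exposure list moved with the same library. ELIP1, ELIP2, CHS and FLS1, 4 of the 5 members, were tested (F3H was not), and these genes are known to be raised by light. Their summed level was 43.3, 46.7 and 26.6 CPM in H71 and 53.2, 40.2 and 36.0 CPM in H76, against 90.12, 28.9 and 34.5 CPM in pif4. All 4 had lower values in the lines, with none called, and the median was -0.29. Without pif4 a it was 0.30, and without the 4 libraries lettered a 0.19. FLS1 (AT5G08640), a flavonol synthase, was the lowest, at -1.11 ± 0.58, and CHS (AT5G13930), chalcone synthase, the nearest to 0, at -0.08 ± 0.27.

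Chlorophyll, carotenoid and greening genes had none called among 17 and a median of -0.03, between GNL (AT4G26150), a GATA factor of greening, at -0.60 ± 0.71 and GLK1 (AT2G20570), an activator of chloroplast genes, at 0.19 ± 0.16. Photoreceptor and light-signalling genes had none called among 11 and a median of 0.09. HY5 (AT5G11260), which promotes the light response, was the highest at 0.30 ± 0.25, and CRY1 (AT4G08920), a blue light receptor, the lowest at -0.11 ± 0.12. PHYA (AT1G09570), the photoreceptor that accumulates in darkness, had 762.3 to 853.9 CPM over the line libraries, against 749.2 to 779.2 CPM in pif4, with overlap.

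Clock genes had none called among 10 tested of 11 (PRR9 was not tested) and a median of -0.03. LHY (AT1G01060), a morning-expressed repressor, had 58.8, 42.6 and 40.9 CPM in H71 and 71.5, 53.0 and 60.8 CPM in H76, against 81.5, 68.4 and 58.2 CPM in pif4. The groups overlapped, and the difference was -0.35 ± 0.16 (adjusted p = 0.999, edgeR). At 37 °C LHY was at 3.47 to 8.51 CPM over the line libraries, against 9.73 to 16.9 CPM in pif4, and fell by 1.23 on the log2 scale (adjusted p = 0.0456, edgeR). PRR5 (AT5G24470), an evening-side repressor, had the largest clock value at 22 °C, 0.30 ± 0.46.

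Heat stress genes had positive values in 11 of 12 cases and a median of 0.35, with none called (HSP21 and APX2 were not tested). By line, 5 of 12 values were positive in H71 (median -0.05) and 10 of 12 in H76 (median 0.77). HSP18.2 (AT5G59720), a cytosolic small heat shock protein, had 3.52, 1.86 and 0.848 CPM in H71 and 1.08, 0 and 50.5 CPM in H76, against 3.10, 1.07 and 1.13 CPM in pif4. Library H76 c held nearly all of it, and the difference of the mean was 1.90 ± 1.66 (log2 ± SE). HSP70B (AT1G16030), a heat-raised chaperone, had 20.4, 7.25 and 65.0 CPM in H76 and 5.24 to 10.3 CPM in H71, against 6.04 to 14.1 CPM in pif4, again highest in H76 c. Without H76 c the median of the list was 0.06 and HSP18.2 stood at -0.64. The median was 0.54 without H76 b, 0.56 without pif4 a and 0.23 without pif4 b. HSFA2 (AT2G26150), a heat shock factor raised by heat, had 2.17, 1.35 and 1.87 CPM in H71 and 2.63, 3.42 and 3.89 CPM in H76, against 1.38, 0.710 and 0.348 CPM in pif4. H71 b lay just under pif4 a there, and the difference was 1.78 ± 0.64 (unadjusted p = 0.0116, edgeR) at a few CPM. The lowest of the list was HSFA7A (AT3G51910), another heat shock factor, at -0.06.

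**Figure D5:**
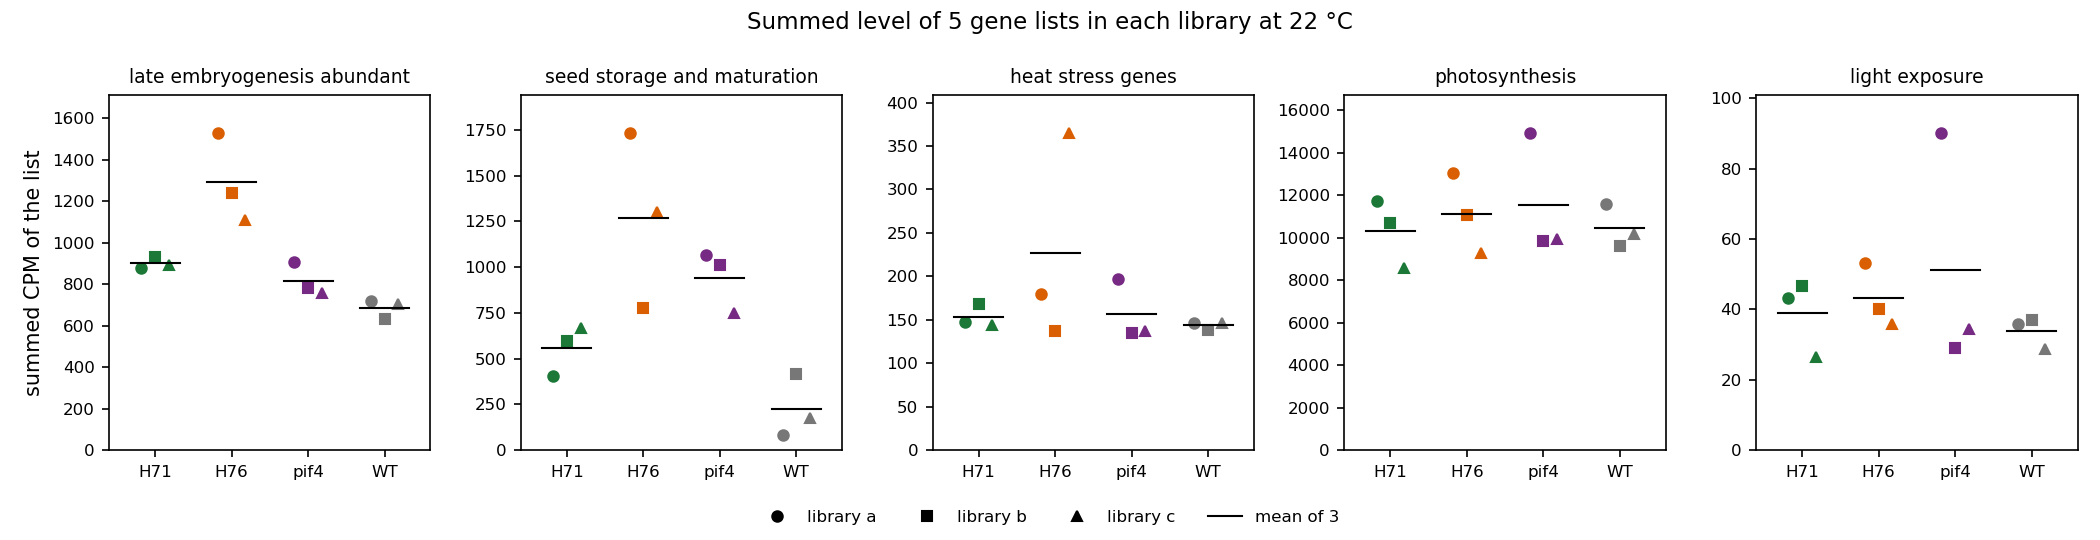
Summed level (CPM, y axes starting at 0) of 5 gene lists in each library of H71, H76, pif4 and WT at 22 °C, with symbols for libraries a, b and c and a bar for the mean of 3. The highest libraries are H76 c for heat stress genes (364.9 CPM), and pif4 a for photosynthesis (14930 CPM) and light exposure (90.12 CPM). For photosynthesis, library a is the highest of every group, with H76 a at 13030 CPM.

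Of the 20 protein-coding neighbours of PIF4, 10 on each side in the annotation, 14 were tested and none was called. Their median was -0.07. NAC042 (AT2G43000), a NAC transcription factor gene, was the lowest at -1.35 ± 0.89, with 1.35 to 23.2 CPM over the line libraries, against 11.7, 47.9 and 7.48 CPM in pif4. Its value was -0.09 without pif4 b and -2.24 without H71 c. The highest was AT2G42975 at 0.18 ± 0.37. The root markers (8 of 10 tested) had none called and a median of 0.04, between PHO1 (AT3G23430), a phosphate exporter, at -0.37 ± 0.15 and RHD6 (AT1G66470), a root hair regulator, at 0.56 ± 0.48. The 6 reference genes had none called and a median of 0.00, between TIP41 (AT4G34270) at -0.15 ± 0.14 and SAND (AT2G28390) at 0.07 ± 0.28.

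Some genes stood apart from WT both in the lines and in pif4. They are 4 of the 10 genes (0.0533%) called in pif4 against WT and were chosen after their values were seen. RH12 (AT3G61240), an RNA helicase gene, had 10.4 to 17.9 CPM over the line libraries and 13.0 to 19.6 CPM in pif4, against 70.7 to 83.9 CPM in WT. HEI10 (AT1G53490), a RING protein known from meiotic crossovers, had 8.63 to 19.2 CPM over the line libraries and 13.2 to 16.2 CPM in pif4, against 0.798 to 2.24 CPM in WT. SHL1 (AT4G39100), a chromatin reader, had 25.4 to 34.4 CPM over the line libraries and 21.2 to 29.2 CPM in pif4, against 47.2 to 63.1 CPM in WT. AT1G03106 had 31.4, 53.0 and 38.5 CPM in H71, 85.1, 70.0 and 69.2 CPM in H76 and 42.0 to 44.3 CPM in pif4, against 12.8 to 19.7 CPM in WT. All its H76 libraries also lay above pif4, by 0.80 on the log2 scale, which was not called at 22 °C (adjusted p = 0.417, edgeR) and was called at 37 °C (1.24, adjusted p = 0.0349, edgeR). The lines and pif4 share the WT libraries in these contrasts.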

How the data were processed

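Raw read counts per gene, as deposited by the authors for 24 libraries, were taken from the columns that the file headers name as counts, which hold whole numbers. Another 24 per-sample columns of length-corrected values were not used. The build was TAIR10, per the submitters' processing notes, with aligner, counting tool and strand setting not given in the sources used here. Of 33602 listed genes, 1274 had no value. Reference symbols, gene order and upstream windows came from RefSeq TAIR10.1, in which 32835 identifiers matched.

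The 12 libraries at 22 °C in 4 groups were fitted with edgeR 4.0.16 in R 4.3.3 (filterByExpr, TMM, robust quasi-likelihood F test, two-sided). The contrast was the mean of H71 and H76 minus pif4, and a gene was called at an adjusted p under 0.05. The SE is the log2 difference divided by the square root of F. The biological coefficient of variation was 23.3%. The 12 heated libraries were fitted separately. DESeq2 1.42.0, other scalings, filters and sample sets were alternatives. The code was tested on simulated data. The members and the 14 gene lists (185 genes) were chosen with earlier results of these data known. Genes named are PIF4, the 10 with the smallest p, those called in either line or between lines, and the extremes of each list. Others, such as further list members, were named after their values were seen.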

Additional observations from a re-analysis of the deposited data

Results flagged for a closer look

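Among 55 measures screened over the 6 PIF4-L libraries (named genes and summed levels of lists), 2 had a library far from the others. The cut-off marks about 1 in 20 by chance when 6 libraries are alike. These 6 come from 2 lines, so the number found was not weighed against that rate. Heat genes outside the screen were also highest in H76 c. HSP22 had 46.3 CPM there, against 2.75 to 5.92 CPM in the other line libraries, and HSP101 had 30.2 CPM, against 7.28 to 13.6 CPM. DREB2A, GOLS1, MBF1C and HSFA7A were not highest in H76 c. HSP18.2 was at 50.5 CPM in H76 c, with a gap to the next library of 0.93 of the whole range. The summed level of the heat stress list was at 364.9 CPM in H76 c, with a gap of 0.815 of the range. That sum includes HSP18.2, so the 2 flags are not separate. AT2G01422 differed between the lines by -7.40 (log2, H71 minus H76, adjusted p = 1.52e-07, edgeR), with 3 of 3 H76 libraries above every H71 library.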

How the results depend on the processing

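Called genes numbered 0 for the mean of the lines against pif4, 2 for H71, 9 for H76, 1 between the lines, 75 for the lines against WT and 10 for pif4 against WT. With DESeq2 the counts were 8, 6, 26, 27, 144 and 66. With all 24 libraries they were 6 for the mean, 23 for H76, 15 between the lines and 19 for pif4 against WT. With no filter beyond 1 read they were 3 for the mean, 8 between the lines and 16 for pif4 against WT. Total counts as library size gave 0 for H71, and the 9 compared libraries alone gave 0 for H71 and 6 between the lines. The 6 line libraries as 1 group gave 42 against WT. Without the 4 libraries lettered a, chosen after seeing the data, H71 had 0 and H76 had 5. Leaving out 1 library gave 0 to 1 for the mean, 0 to 2 for H71, 2 to 9 for H76, 1 to 4 between the lines, 61 to 77 for the lines against WT and 5 to 14 for pif4 against WT. The low value for H76 came without H76 a, pif4 b or pif4 c, each giving 2. H71 kept a count of 2 without H76 a, had 1 without pif4 b and 0 without any other library of the lines or pif4. The mean had 1 call without H71 a, without pif4 b and without pif4 c.

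The PIF4 level, a difference of 1.36, was past the threshold with no filter (1.36, adjusted p = 0.018), DESeq2 (1.36, adjusted p = 5.88e-05), all 24 libraries (1.37, adjusted p = 0.00191) and without pif4 b (adjusted p = 0.0309, edgeR). It lay between 1.09 and 1.70 when 1 library was left out.

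The letters were tried as a replicate block. Deviations of same-letter libraries correlated by 0.118 to 0.25 for a, -0.133 to 0.165 for b and -0.049 to 0.217 for c. Since some pairs of b and c were negative, the letters were not taken to pair the samples. Still, 8 of 12 libraries matched their own letter best. All 6 pairs of a were positive, and the main fit does not account for a difference shared by those libraries. With this replicate block the counts were 6 for the mean, 7 for H71, 15 for H76, 10 between the lines, 158 for the lines against WT and 33 for pif4 against WT, and the PIF4 level stood at 1.39 (adjusted p = 0.0402, edgeR).

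Signs turned for some uncalled genes. Over single libraries left out, GA20OX2 ran from -0.09 to 0.84, HSP18.2 from -0.64 to 2.38, HSFA7A from -0.23 to 0.14, CHS from -0.31 to 0.32, SAND from -0.19 to 0.28, AT2G42975 from -0.071 to 0.50 and RH12 from -0.037 to 0.24. Without the libraries lettered a, GA20OX2 was at -0.23, CRY1 at 0.001, HSFA7A at 0.046 and CHS at 0.34. The causes of these changes were not tested. Levels near 1 CPM rest on a few reads in the shallowest library (3176106 reads), which limits what differences could be detected there. The LEA median was 0.60 with the 6 line libraries as 1 group.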
